A study of Mus musculus with 101 samples.

Results

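Among the mouse mammary tumours of the KP model, 10 sarcomatoid tumours were compared with 6 adenocarcinomas by copy number, across all 43513 genes of the deposited tables. They were chosen by genotype and histology label, and they are 16 of the 101 samples of the series, which holds 98 tumours and 3 spleens. Genomic DNA of each tumour was sequenced at low coverage, with 1 library per tumour. The series compares tumours of a Brca1 missense model with those of the KP, KB1P and KB2P models.

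In the usual naming of these models, K stands for Cre recombinase driven by the keratin 14 promoter, which acts in epithelial cells, and P for conditional alleles of the tumour suppressor Trp53. All 16 tumours share that genotype. Sarcomatoid tumours, which grow as spindle-shaped cells with a mesenchymal look, were labelled as 0% epithelial, and adenocarcinomas, which form glands, as 100% epithelial. The titles number the tumours, but no label ties a tumour to its animal, so a p-value here rests on the spread among tumours only. No marker of either histology can be checked in DNA copy number. All 10 sarcomatoid libraries were in library series 5750, whereas 2 adenocarcinomas (tumours 1 and 2) were in series 5289 and 4 (tumours 3 to 6) in series 5490. Library series and histology therefore cannot be told apart in any comparison of these tumours.

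Yap1 is the transcriptional coactivator at the end of the Hippo pathway, which restrains the growth of tissues. When Hippo kinases are off, Yap1 enters the nucleus, binds Tead factors and drives genes of growth and survival. Met is the receptor tyrosine kinase for hepatocyte growth factor and signals through Ras and phosphoinositide 3-kinase. Both are known to be amplified in some cancers. A tumour cell can gain such a gene by a focal amplification of a short piece of a chromosome, or gain and lose whole arms at low copy number.

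Every sarcomatoid tumour carried a high-level gain at either Yap1 or Met, and no sarcomatoid tumour carried both. High-level gain here means a segment value of at least 1, where a segment value is the log2 ratio of copy number after the authors joined neighbouring bins of like ratio. The segment value of Yap1 in sarcomatoid tumours 1 to 10 was 4.18, 5.07, 4.82, 4.46, 4.20, 0.00, 3.28, 5.11, 4.79 and 4.24. In adenocarcinomas 1 to 6 it was -0.53, -0.01, 0.16, 3.95, -0.83 and 0.12. Yap1 was thus at high-level gain in 9 of 10 sarcomatoid tumours and in 1 of 6 adenocarcinomas, and the groups overlap only through sarcomatoid tumour 6 and adenocarcinoma 4.

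Sarcomatoid tumour 6 was the tumour with Met, at a segment value of 3.54. The other 9 sarcomatoid tumours had Met values between 0.00 and 0.07. Met stood at 4.22 in adenocarcinoma 1 and 4.28 in adenocarcinoma 6, and between -0.08 and 0.16 in the other 4 adenocarcinomas. Adenocarcinomas 2, 3 and 5 had neither gene at high-level gain. The 2 KP carcinosarcomas, which hold both tissue types and are labelled 90% epithelial, carried Met at 4.47 and 5.04. The first of them also had Yap1 at 4.14, so the pair can occur in 1 tumour of this genotype.

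**Figure D1:**
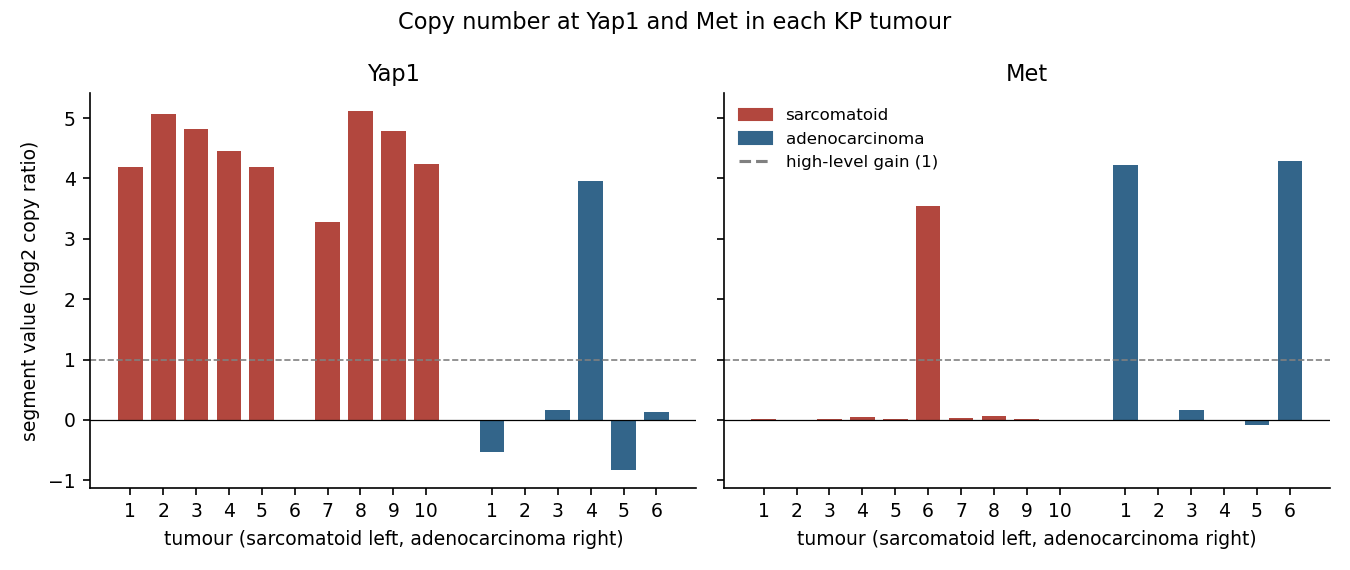
Segment value (log2 copy ratio) of Yap1 on the left and Met on the right, 1 bar per tumour, sarcomatoid tumours 1 to 10 in red and then adenocarcinomas 1 to 6 in blue; the dashed line marks high-level gain. Yap1 exceeds 3 in 9 sarcomatoid tumours and 1 adenocarcinoma, and Met in sarcomatoid tumour 6 and adenocarcinomas 1 and 6.

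In the fit over all genes, the segment value of Yap1 averaged 4.01 ± 1.51 in sarcomatoid tumours and 0.48 ± 1.75 in adenocarcinomas (SD, n = 10 and 6). The difference was 3.54 (SE 0.73, limma adjusted p = 0.0154). Genes called higher in sarcomatoid tumours at an adjusted p under 0.05 made up 2.99% of all genes tested, and genes called lower 0%. Met averaged 0.38 ± 1.11 in sarcomatoid tumours and 1.43 ± 2.18 in adenocarcinomas (SD, n = 10 and 6), a difference of -1.06 (SE 0.72) that did not pass the test (limma adjusted p = 0.516). The call at Yap1 was lost without adenocarcinoma 3 (limma adjusted p = 0.0519) and in 5 of 10 other settings, where the adjusted p ranged between 3.56e-05 and 0.79. By Fisher's exact test of the deposited gain calls, 9 of 10 against 1 of 6, the unadjusted p at Yap1 was 0.00762, and no gene passed after adjustment over all genes, the smallest adjusted p being 0.0943.

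Around Yap1, on chromosome 9 at 7931999 to 8004638 (GRCm38), the interval at high-level gain covered 1.25 Mb at the least, 3.44 Mb at the median and 6.48 Mb at the most in the 9 sarcomatoid tumours. It held 25 to 58 placed genes. The interval of adenocarcinoma 4 was 4.35 Mb long and held 38 genes. Edges are known only to the nearest gene of the tables, so the gene-poor stretch beyond the end of Gm19324 at 8181112 may hold part of an edge.

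The stretch shared by all 9 sarcomatoid tumours ran from Dync2h1 to Gm7495, its last gene by start, at chr9:6928550-8181112, which is 1.25 Mb with 25 genes and ends with the overlapping Gm19324. Sarcomatoid tumour 4, whose interval was the shortest, set both of its ends. Adenocarcinoma 4 and the carcinosarcoma with Yap1 gain covered the same 25 genes. Within the shared stretch 7 listed genes sat at the tumour's highest segment in 9 of 9 sarcomatoid tumours. They were Yap1; Birc2 and Birc3, which encode inhibitors of apoptosis; Mmp7 and Mmp20, which encode matrix metalloproteinases; Tmem123, which encodes a membrane protein; and Cep126, which encodes a centrosomal protein.

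The copy scores the authors deposited put Yap1 at 19 to 69 copies in these 9 sarcomatoid tumours and at 31 in adenocarcinoma 4. Birc2 and Birc3 had the same segment values as Yap1 in all 16 tumours, as genes of a common segment. Their difference of 3.54 is therefore the same measurement and not a further result.

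On the side of Yap1 with lower coordinates, the metalloproteinase cluster was included in all 9. Mmp8, Mmp10 and Mmp13 were at high-level gain in 9 of 9 and at the tumour's highest segment in 8 of 9 of the Yap1-gained sarcomatoid tumours. In sarcomatoid tumour 4 Mmp13 stood at 2.55 while Yap1 stood at 4.46. Dync2h1, a motor subunit of cilia, was at high-level gain in all 9 and at the highest segment in 6. Farther out, Pdgfd, a growth factor of the platelet-derived family, was at high-level gain in 6 of 10 sarcomatoid tumours and in 0 of 6 adenocarcinomas. Casp1, Casp4 and Casp12, caspases of inflammation, were included in 2 sarcomatoid tumours.

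On the other side the next listed gene beyond the shared stretch was Trpc6, a cation channel. It was at high-level gain in 7 of 10 sarcomatoid tumours and in adenocarcinoma 4. Pgr, the progesterone receptor, was included in 5 sarcomatoid tumours and in adenocarcinoma 4. In the 4 other sarcomatoid tumours with Yap1 gain Pgr stood at 0.59, -0.14, 0.77 and -0.20 (tumours 4, 8, 9 and 10). Arhgap42, a GTPase-activating protein, reached high-level gain in 6 sarcomatoid tumours and in adenocarcinoma 4.

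**Figure D2:**
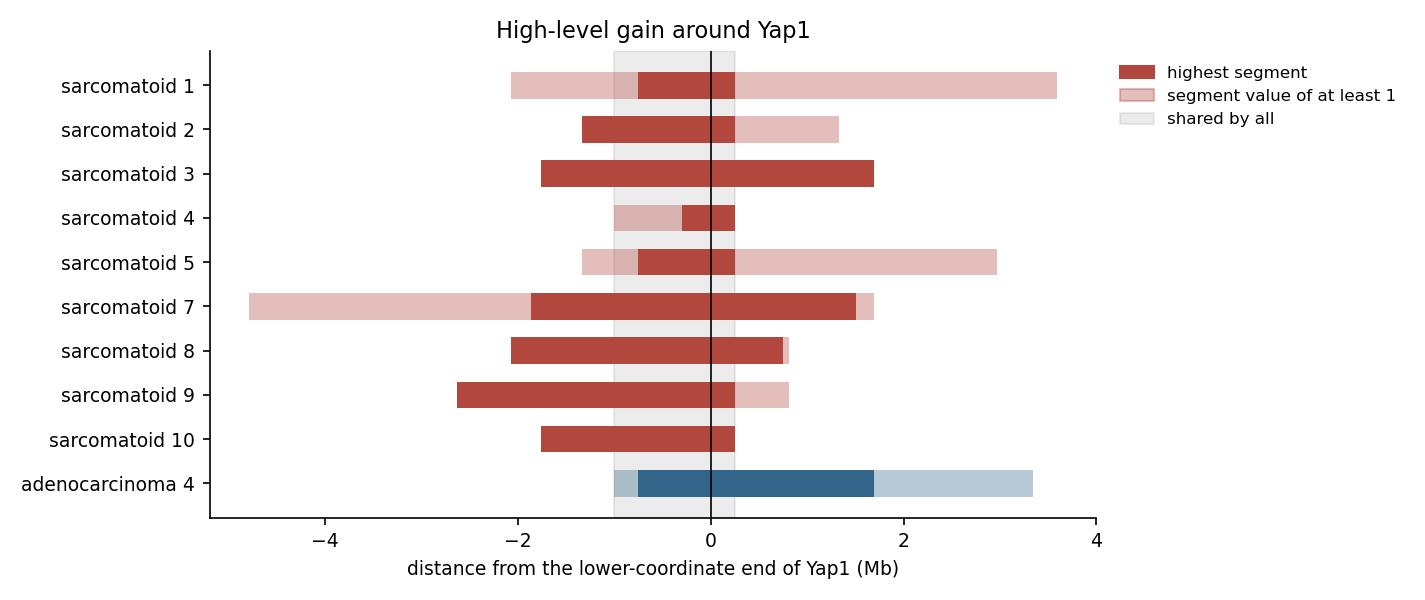
High-level gain around Yap1 in the 9 sarcomatoid tumours (red, above) and the 1 adenocarcinoma (blue, below) that carried it, as distance in Mb from the lower-coordinate end of Yap1; pale bars span the interval at a segment value of at least 1, dark bars the genes at the highest value, and the grey band the stretch shared by all. The band is 1.25 Mb long and its ends are those of sarcomatoid tumour 4.

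The Met interval of sarcomatoid tumour 6 was longer than either one in the adenocarcinomas. It held 52 genes over 9.13 Mb of chromosome 6, from Ppp1r3a to Cadps2, against 25 genes in adenocarcinoma 1 and 23 genes in adenocarcinoma 6. The 3 tumours shared 14 genes from Cav2 to Cttnbp2 at chr6:17281185-18515217, 1.23 Mb long. The shared genes include Met at 17463349 to 17573980, Cav1 and Cav2, which encode caveolins, Wnt2, a secreted Wnt ligand, and Cftr, a chloride channel. Wnt2, Asz1 and Cftr shared the smallest p of the listed genes of this locus. Their common difference of -1.18 (SE 0.65) did not pass the test (limma adjusted p = 0.495). Tumour 6 had 2 further intervals at high-level gain on chromosome 6, from Gm26627 to Ahcyl2 at 1.56 and from 1700012A03Rik to Creb3l2 at up to 1.60.

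In all 10 sarcomatoid tumours, high-level gain was found on 1 chromosome and no gene reached -1. The extra intervals of sarcomatoid tumours 2, 4 and 9 all lay on chromosome 9, and that of tumour 4 from Gm18160 to Maml2 reached 4.26. Maml2, which encodes a coactivator of Notch signalling, lay past the stretch at 4.26 and stood at 3.675. Adenocarcinomas 1, 2 and 4 likewise had high-level gain on 1 chromosome. Adenocarcinomas with neither Yap1 nor Met gain had high-level gain elsewhere, on up to 3 chromosomes.

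Adenocarcinoma 5 carried the most, with 708 placed genes over 43.8 Mb on chromosomes 3, 6 and 8. Its chromosome 6 interval was 25.5 Mb long and held Ccnd2, a cyclin of the G1 phase, at 2.40. Nras, a small GTPase of growth factor signalling, stood at 2.72 and Mcl1, a survival factor of the Bcl2 family, at 2.32 on chromosome 3. Cul4a and Tfdp1, a ubiquitin ligase subunit and a partner of E2f factors, stood at 2.88 on chromosome 8. In the 10 sarcomatoid tumours Ccnd2 ranged between -0.02 and 0.07, and Nras and Mcl1 between -0.15 and 0.12.

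Adenocarcinoma 3 carried high-level gain on chromosomes 11 and X. Sox9, a transcription factor of progenitor cells, stood at 3.31 on its highest segment. It was also the 1 tumour of the 16 with a deep loss, at -1.34 over the last 8.19 Mb of placed genes of chromosome 12. Adenocarcinoma 2 reached 2.56 on chromosome X, from Mir767 to Trex2. Adenocarcinoma 6 had Twist1, a transcription factor of mesenchymal transition, at 1.59 and Abcg2, a drug efflux transporter, at 1.37, beside its Met gain. None of the differences for Nras, Mcl1, Cul4a and Sox9 between the histologies passed the test (limma adjusted p = 0.516 for each).

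Loss calls separated the histologies completely. A loss call is a copy score under 2, which in these 16 tumours needed a segment value of at most -0.43, and a gain call needed at least 0.32. The share of genes with a loss call was 0% in all 10 sarcomatoid tumours, and 4.21% at the lowest, 10.9% at the median and 23.9% at the highest in adenocarcinomas. The difference of means was -12.1 points (two-sided exact permutation test over 8008 splits, adjusted p = 0.000687 over 11 measures). The unadjusted p of 0.000125 is the smallest the test could give, since no sarcomatoid tumour reached the lowest adenocarcinoma.

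The altered share, the percent of genes with a gain or a loss call, was 0.0827% to 6.01% in sarcomatoid tumours (mean 0.815% ± 1.83, SD, n = 10) and 4.33% to 29.8% in adenocarcinomas (mean 16.4% ± 10.7, SD, n = 6). The groups overlap only through sarcomatoid tumour 2, where the gain of all of chromosome 8 at 0.33 passed the call. The difference was -15.6 points (exact permutation test, adjusted p = 0.000916). With the adenocarcinomas of series 5289 alone it was -11.1 points and did not pass (exact permutation test, adjusted p = 0.0556). Those 2 adenocarcinomas, at 13.97% and 9.88%, both lay above every sarcomatoid tumour. The unadjusted p was therefore the smallest that test could give, so the miss after adjustment decides nothing. In sarcomatoid tumours 1, 3, 7 and 10 every placed gene with an altered call lay on chromosome 9. Altered genes were found on 1 to 3 chromosomes in sarcomatoid tumours and on 2 to 11 in adenocarcinomas.

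Genes with a gain call made up a mean of 0.815% ± 1.83 in sarcomatoid tumours and 4.25% ± 4.76 in adenocarcinomas (SD, n = 10 and 6). The difference was -3.43 points (exact permutation test, adjusted p = 0.0432), and the groups overlap. High-level gain covered 0.143% ± 0.0762 of genes in sarcomatoid tumours and 0.631% ± 0.814 in adenocarcinomas (SD, n = 10 and 6; exact permutation test, adjusted p = 0.0295). The highest share, 2.22% in adenocarcinoma 5, lay far above the next adenocarcinoma at 0.664%.

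Breaks in the profile were also fewer. The median sarcomatoid tumour had 13 breakpoints, or places where the segment value steps from a placed gene to the next on its chromosome, with a range of 5 to 36, and the median adenocarcinoma 70, with a range of 10 to 184. The difference of means was -67.5 (exact permutation test, adjusted p = 0.00801), and adenocarcinomas 1 and 4, with 10 and 20, lay inside the sarcomatoid range. Sarcomatoid tumours had 1 to 4 chromosomes with any breakpoint, against 2 to 14 in adenocarcinomas. In sarcomatoid tumour 1 all 10 breakpoints were on chromosome 9. Large-scale transitions, breaks between segments of at least 10 Mb, numbered 0 in 8 of 10 sarcomatoid tumours and averaged 0.5 ± 1.08 (SD, n = 10), against 4.5 ± 3.27 in adenocarcinomas (SD, n = 6; exact permutation test, adjusted p = 0.00801). Breakpoints with the adenocarcinomas of series 5289 alone differed by -36.2, which did not pass (exact permutation test, adjusted p = 0.222).

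Low-level change was common in both histologies. The share beyond 0.1, meaning genes whose segment value was above 0.1 or below -0.1, was 29.5% ± 10.2 in sarcomatoid tumours (16.0% to 48.4%) and 48.8% ± 25.8 in adenocarcinomas (19.2% to 89.7%). This difference of -19.3 points was near the threshold (exact permutation test, adjusted p = 0.0462) and no longer passed in 12 of the 16 fits that left out a tumour. Without adenocarcinoma 3 it was -11.1 points (exact permutation test, adjusted p = 0.164). In the spleens, 0% of genes passed 0.1, and the highest segment value in size was 0.0054. The spleens were all in series 5289, so they give no baseline for series 5750.

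Beyond 0.2 the shares were 9.03% ± 8.88 in sarcomatoid tumours and 32.5% ± 13.0 in adenocarcinomas (SD, n = 10 and 6; exact permutation test, adjusted p = 0.00378). The noise of neighbouring log2 ratios was 0.0841 ± 0.00845 in sarcomatoid tumours and 0.0828 ± 0.0307 in adenocarcinomas, a difference that did not pass (exact permutation test, adjusted p = 0.933).

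The strongest loss of at least 10 Mb was between -0.36 and -0.01 in sarcomatoid tumours and between -0.94 and -0.54 in adenocarcinomas, with no overlap. The difference of means was 0.48 (exact permutation test, adjusted p = 0.000687). The strongest gain of that length averaged 0.16 ± 0.08 in sarcomatoid tumours and 0.41 ± 0.26 in adenocarcinomas (SD, n = 10 and 6; exact permutation test, adjusted p = 0.0132). In bulk DNA a loss in fewer of the cells and a loss of fewer copies in each cell cannot be told apart, and the share of tumour cells in each sample is not among the values used here.

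**Figure D3:**
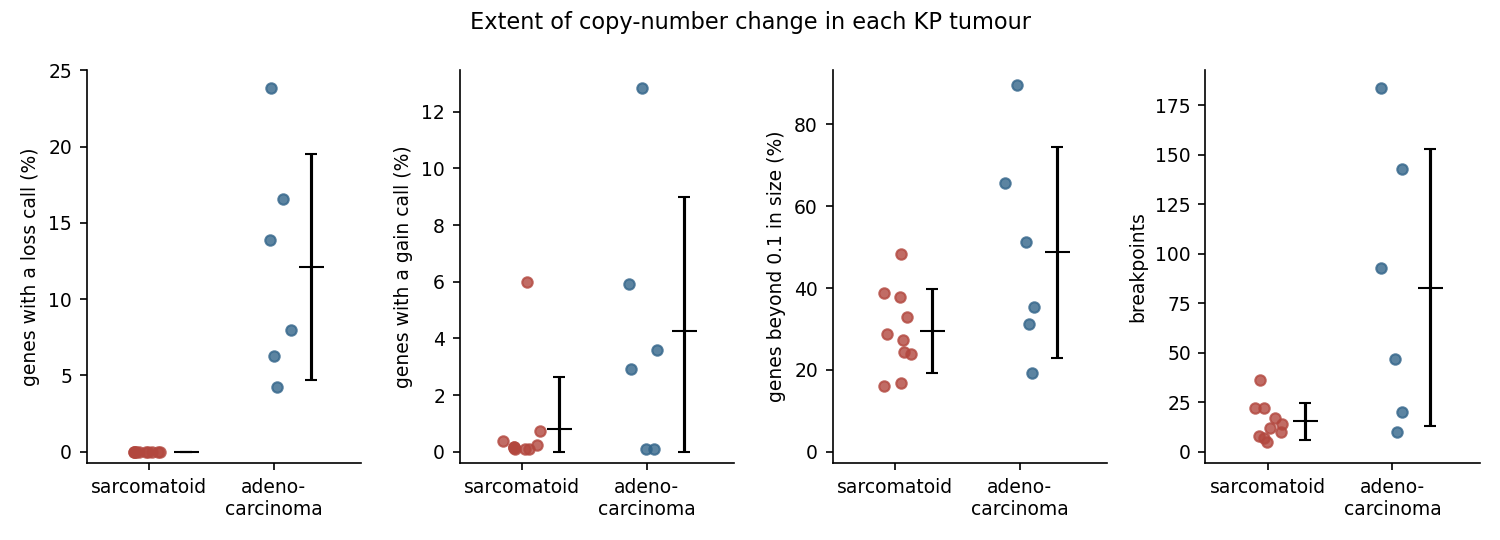
Percent of genes with a loss call, with a gain call and with a segment value beyond 0.1 in size, and number of breakpoints, with 1 point per tumour, sarcomatoid (red) left of adenocarcinoma (blue); the black bar is the mean ± SD (n = 10 and 6), with its lower end stopped at 0. All 10 sarcomatoid tumours sit at a loss share of 0%, below every adenocarcinoma, while the shares beyond 0.1 overlap.

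Among the 20 chromosomes, chromosome 12 was the 1 whose mean level differed. Its mean segment value had a lowest of -0.31, a median of -0.23 and a highest of 0.19 in sarcomatoid tumours, and a lowest of -0.84, a median of -0.55 and a highest of -0.23 in adenocarcinomas. The chromosome was below -0.1 in 9 of 10 sarcomatoid tumours and in 6 of 6 adenocarcinomas, so both histologies were low and the adenocarcinomas lower. The means differed by 0.36 (two-sided exact permutation test, adjusted p = 0.0175 over 20 chromosomes).

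In 7 of the 10 sarcomatoid tumours chromosome 12 was a single unbroken segment. It was the strongest loss of at least 10 Mb in 9 of 10 sarcomatoid tumours, in whole or in part. Sarcomatoid tumour 4 stood apart, with the whole chromosome at 0.19. No gene of chromosome 12 had a loss call in a sarcomatoid tumour, while 75.7% to 100% of them did in 5 adenocarcinomas. The remaining adenocarcinoma, tumour 4, had 0% lost by call at a level of -0.23, inside the sarcomatoid range, and it was also the adenocarcinoma with Yap1 gain. The difference in chromosome 12 level kept its size with each series of adenocarcinomas alone, 0.36 against series 5490 and 0.35 against series 5289. It did not pass there (exact permutation test, adjusted p = 0.0533 and 0.152). The 2 adenocarcinomas of series 5289, at -0.47 and -0.62, both lay below every sarcomatoid tumour. Their unadjusted p was therefore the smallest that test could give, so the miss after adjustment decides nothing for that series. The difference also did not pass after each tumour was centred on its autosomal median (0.32, exact permutation test, adjusted p = 0.0799).

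No other chromosome passed. Chromosome 8 came nearest, at 0.10 ± 0.12 in sarcomatoid tumours and -0.08 ± 0.15 in adenocarcinomas (SD, n = 10 and 6; exact permutation test, adjusted p = 0.172). Chromosome 15, which carries Myc, was above 0.1 in 5 of 10 sarcomatoid tumours and 3 of 6 adenocarcinomas, and its means were 0.11 and 0.10. Chromosome 7 was below -0.1 in 5 of 10 sarcomatoid tumours and 3 of 6 adenocarcinomas. The rest of chromosome 9, from Gm35371 at 40668223 to its last placed gene, was below -0.1 in 8 of 10 sarcomatoid tumours at a group mean of -0.12, and in 4 of 6 adenocarcinomas at a group mean of -0.17. The exceptions among sarcomatoid tumours were tumour 4, at 0.01, and tumour 6, the one with Met gain, at 0.00.

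**Figure D4:**
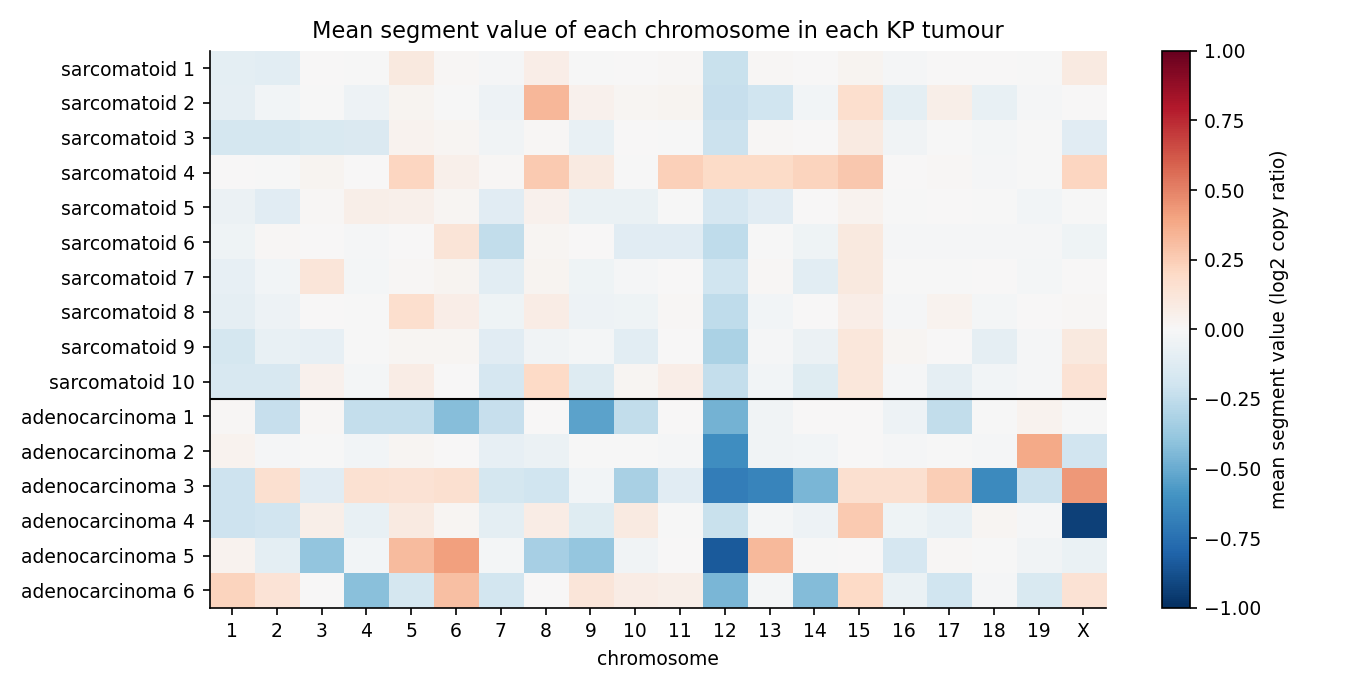
Mean segment value (log2 copy ratio, colour) of the placed genes of each chromosome, in sarcomatoid tumours 1 to 10 above the line and adenocarcinomas 1 to 6 below it. Chromosome 12 is blue in 9 of 10 sarcomatoid tumours and darker in 5 of 6 adenocarcinomas, and sarcomatoid tumour 4 differs from the rest of its group on chromosomes 11, 12 and 14.

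In 4 sarcomatoid tumours the lowest segment lay outside chromosome 12. Those of tumours 3 and 7 were found on chromosome 1, at -0.32 from Hsd11b1 to Cr1l and at -0.37 from Gm5561 to Sccpdh. That of tumour 6 was on chromosome 6, at -0.41 over 6.05 Mb from Olfr443-ps1 to Igf2bp3, and tumour 4 reached no lower than -0.094. The lowest segments of adenocarcinomas were deeper, from -0.62 on all of chromosome 12 in tumour 2 to -1.34 at the end of chromosome 12 in tumour 3. In adenocarcinoma 4 the lowest was chromosome X from Mycs to Gm14913, at -0.94 over 112 Mb.

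Across all genes, 1300 of 43513 were called higher in sarcomatoid tumours and 0 lower (limma, adjusted p under 0.05), and 4069 genes had an unadjusted p under 0.05 in either direction. Called genes with a position fell in 2 places, 27 on chromosome 9 and 935 of the 1235 placed genes on chromosome 12, and 338 called genes had no position. Genes of a segment share their value, so these counts measure the length of a few segments. On chromosome 9 the region ran from Gm21089 to Gm7495 at chr9:6594237-8181112, with a mean of 3.89 in sarcomatoid tumours and 0.41 in adenocarcinomas. On chromosome 12 it ran from Etv1 to Tmem196 at chr12:38780082-120021242, with a mean of -0.20 in sarcomatoid tumours and -0.59 in adenocarcinomas. "Higher" on chromosome 12 means a less negative group mean, and sarcomatoid tumour 4 stood at 0.19 there. The count was 0 in several other settings, namely with library series as a random block, with log2 ratios in place of segment values, with the adenocarcinomas of series 5490 alone, after centring, with a variance for each histology and without adenocarcinoma 3. It was 738 without adenocarcinoma 2 or 5, 741 without adenocarcinoma 6, and 37 with all 98 tumours in the fit. With the 2 adenocarcinomas of series 5289 alone it was 7149, of which 5638 were higher and 1511 lower in sarcomatoid tumours.

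Of the engineered genes of the series, none differed. Trp53, on chromosome 11 at 69580348 to 69591873, stood at 0.02 ± 0.09 in sarcomatoid tumours and 0.06 ± 0.23 in adenocarcinomas (SD, n = 10 and 6; limma adjusted p = 0.906). The gene is shorter than a 20 kb bin and takes its value from the surrounding segment, so this checks nothing about the engineered deletion. Brca1 differed by 0.19 (SE 0.10, limma adjusted p = 0.478), with adenocarcinoma 5 at -0.85. Brca2 differed by 0.07 (SE 0.08, limma adjusted p = 0.80).

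Of 25 measured genes around Yap1, 17 were called higher and 0 lower, against 2.99% called higher over all genes. All 17 lie in the called region of chromosome 9, so they describe that amplicon and are not separate results. The list was also chosen with earlier results of these data known. Its median difference was 3.35, against a median of 0.04 over all genes tested. Of 27 genes of the Hippo pathway outside that locus, 1 was called, a share near the 2.99% of all genes and so no result about the pathway. Sav1, the scaffold of the Hippo kinases and so an inhibitor of Yap1, stood at -0.36 at the lowest, -0.22 at the median and 0.19 at the highest in sarcomatoid tumours, and at -0.84, -0.62 and -0.23 in adenocarcinomas. The difference was 0.38 (SE 0.08, limma adjusted p = 0.0154). Sav1 lies on chromosome 12 at 69965009 to 69988141 and moved with its segment. The median difference of the list was 0.07.

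All other listed genes that were called also lie in the chromosome 12 region, and their counts stand against the 2.99% called over all genes; they describe that segment and not the lists. Max, the partner of Myc, was the 1 called of 22 genes of the Myc family and other amplified genes, with 5 of 6 adenocarcinomas and 0 of 10 sarcomatoid tumours having a loss call. Of 38 tumour suppressors, against that 2.99%, 3 were called higher, Dicer1, which cuts microRNA precursors, Traf3, a brake on NF-kappaB signalling, and Bcl11b, a transcription factor of T cells. Each differed by 0.36 (SE 0.09, limma adjusted p = 0.0187). Without a single tumour the call at Dicer1, Traf3 and Bcl11b was lost in 4 of 16 fits, and it was lost in 6 of 10 other settings. The calls at Sav1 and Max were lost in 1 of 16 fits and in 6 of 10 other settings.

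Of 33 genes of homologous recombination and the response to PARP inhibitors, 3 were called higher, against 2.99% of all genes. They include Xrcc3, a protein of strand exchange in recombination, and Mlh3, a mismatch repair protein. Of 36 epithelial and mesenchymal genes, likewise against 2.99%, 3 were called higher, namely Foxa1, a pioneer factor of luminal cells, Esr2, an oestrogen receptor, and Tgfb3, a ligand of the TGF-beta family. Mlh3, Foxa1, Esr2 and Tgfb3 share the values of Sav1. The median difference was 0.07 for the recombination list and 0.01 for the epithelial and mesenchymal list, on either side of the 0.04 of all genes.

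No gene was called in the lists of receptor kinases and Ras signalling (40 measured), the cell cycle and p53 pathway (26), antigen presentation and interferon (17), drug efflux transporters (4), the Met locus (13) and engineered genes (3). In the first of these Fgfr1, a growth factor receptor, differed by 0.13. In the cell cycle list Rbl2, a pocket protein, and Ccne1, a cyclin, differed by 0.28 and 0.15. Nlrc5, an activator of MHC class I genes, differed by 0.28. Among transporters Abcc4 differed by 0.20 and Abcb1b by 0.11. The lowest adjusted p among these genes was 0.189 (limma), at Rbl2 and Nlrc5 on chromosome 8.

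The KB1(L1363P)P model, which by its name joins the Brca1 missense variant to the Cre and Trp53 alleles, has both histologies in 1 library series. Within series 5289 its 12 sarcomatoid tumours had an altered share of 2.37% ± 3.49 (SD, n = 12), against 44.6% and 14.5% in its 2 adenocarcinomas (difference -27.2 points, two-sided exact permutation p = 0.0110 over 91 splits, the smallest possible). Breakpoints averaged 16.5 ± 12.7 (SD, n = 12) in sarcomatoid tumours and were 63 and 81 in the adenocarcinomas (exact permutation p = 0.0110). Chromosome 12 averaged -0.22 in sarcomatoid tumours and -0.44 in adenocarcinomas, which did not pass (exact permutation p = 0.0769). The share beyond 0.1 was 46.2% ± 13.7 in sarcomatoid tumours (SD, n = 12) and 49.7% and 31.4% in adenocarcinomas. Yap1 was at high-level gain in 10 of 12 sarcomatoid tumours and in 0 of 2 adenocarcinomas, and Met in 2 of 12 and 0 of 2.

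Each of the 2 adenocarcinomas of that model in series 5289 shares the leading number of its title with a sarcomatoid tumour, without the labels saying that they came from 1 animal. The altered shares were 1.02% in the sarcomatoid and 44.6% in the adenocarcinoma of the first pair, and 0.131% in the sarcomatoid and 14.5% in the adenocarcinoma of the second. In the second pair Yap1 stood at 4.48 in the sarcomatoid tumour and -0.02 in the adenocarcinoma. In the first pair it stood at -0.23 in the sarcomatoid tumour and 0.05 in the adenocarcinoma.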

How the data were processed

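Genomic DNA of mouse mammary tumours was sequenced as single 50-base reads. Per the labels' protocols, the authors counted BWA alignments in bins of 20 kb and corrected them for GC content and mappability. Tools were BWA 0.7.17, SAMtools 1.10, cutadapt 2.5 and Picard, with build mm10, per the submitters' processing notes; the protocol text names hg19. From these bins the authors deposited a log2 ratio per gene and, after segmentation, a log2 segment value. They also deposited a copy score, whole numbers in which 2 is neutral; in 99.99% of entries it was the segment value turned back to a linear scale, doubled and rounded. How segments were drawn and what the ratios are relative to is not given in the sources used here. Depth in reads is unknown, and the noise of neighbouring ratios is given instead.

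Symbols were placed through RefSeq's table of GRCm38.p6, with 32661 matched by symbol, 30 by an older symbol and 10822 without a position. The fit per gene used limma 3.58.1 (R 4.3.3) on segment values, over 43513 genes with Benjamini-Hochberg adjustment and only the 16 tumours in the fit. Other measures were tested by exact permutation, counting splits whose difference was at least as large in size, with Python 3.11.15, NumPy 2.4.6 and SciPy 1.17.1. Large-scale transitions were counted after removing segments under 3 Mb and joining those within 0.1. The methods were tested on simulated data. Of 120 pairs of the 16 tumours, 0 had identical profiles.

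Members, 12 gene lists, tests and the rule for named genes were chosen with earlier results of these data known. The rule names engineered genes, Yap1, Birc2, Birc3 and Met, called regions by first and last gene, up to 6 called genes per list or the 2 with the smallest p, listed genes at 1 or more or -1 or less, and each tumour's extreme segments. Ctsc was taken off the Met locus list once its position was seen. Some genes the rule names are not reported here. Gene functions are general knowledge. Alternatives covered library series, histology classes, centring, values, variance, thresholds and single tumours; those on chromosome 12 and some on named genes were chosen after seeing the data.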

Additional observations from a re-analysis of the deposited data

Results flagged for a closer look

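In 66 groups of values, the highest or lowest tumour was compared with its nearest neighbour by Dixon's test. That test flags about 1 group in 20 by chance. Here 17 values stood apart, with some tumours flagged more than once. Among sarcomatoid tumours, tumour 6 had the one Yap1 segment value without gain (0.0027, nearest 3.28), the Met value of 3.54 (nearest 0.07), a chromosome 6 mean of 0.13 (nearest 0.07) and a share at high-level gain of 0.345% (nearest 0.175%). Sarcomatoid tumour 4 had mean segment values of 0.24 on chromosome 11 (nearest 0.07), 0.19 on chromosome 12 (nearest -0.17) and 0.22 on chromosome 14 (nearest 0.01). Sarcomatoid tumour 2 had an altered share and a gained share of 6.01% each (nearest 0.722%) and a chromosome 16 mean of -0.10 (nearest -0.04). Sarcomatoid tumour 10 had a chromosome 17 mean of -0.091 (nearest -0.01).

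Among adenocarcinomas, tumour 4 had the one Yap1 gain, at 3.95 (nearest 0.16). Adenocarcinoma 5 had a share at high-level gain of 2.22% (nearest 0.664%) and a chromosome 3 mean of -0.39 (nearest -0.11). Adenocarcinoma 3 had means of -0.66 on chromosome 13 (nearest -0.04) and -0.64 on chromosome 18 (nearest -0.02). The noise of neighbouring log2 ratios was 0.144 in adenocarcinoma 6 (nearest 0.0775).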

How the results depend on the processing

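The altered share and breakpoints kept their direction and call in every alternative run except with the 2 adenocarcinomas of series 5289 alone, where the differences were -11.1 points and -36.2. For the altered share that test gave its smallest possible unadjusted p, so the miss there decides nothing. The share beyond 0.1 missed the threshold with those 2 adenocarcinomas (-5.80 points), with carcinosarcomas joined to the adenocarcinomas (-19.2 points) and on autosomes only (-18.8 points), and it ranged between -25.2 and -11.1 points when single tumours were left out. Chromosomes called were 0 after centring and with the adenocarcinomas of either series alone, where the chromosome 12 difference was 0.32, 0.36 (series 5490) and 0.35 (series 5289). With series 5289 the chromosome 12 test gave its smallest possible unadjusted p, so its miss there decides nothing.

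Genes called were 0 with library series as a random block, with the adenocarcinomas of series 5490, with log2 ratios, after centring, with a variance for each histology and by Fisher's exact test. At an unadjusted p under 0.05 these settings gave 2988, 6808, 4424, 4897, 1325 and 1779 genes. With all 98 tumours in the fit 37 genes were called, and with the adenocarcinomas of series 5289 alone 7149, of which 5638 were higher and 1511 lower in sarcomatoid tumours. Without single tumours the count ranged between 0 and 1303; it was 0 without adenocarcinoma 3 (11040 at an unadjusted p under 0.05), 738 without adenocarcinoma 2 or 5 and 741 without adenocarcinoma 6. No named gene that was called turned its direction in any of these settings. No paired analysis was possible because the tumour numbers of the titles do not pair tumours across the 2 histologies.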
